A study of Homo sapiens with 6 samples.

Results

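Aminoacyl-tRNA synthetases join each amino acid to its own tRNA, the step that ties the genetic code to protein synthesis. Separate nuclear genes usually encode the cytosolic and the mitochondrial enzyme for an amino acid, and the mitochondrial enzymes charge the tRNAs that read the organelle's own transcripts. Many cytosolic synthetase genes are known targets of ATF4, the transcription factor of the integrated stress response, which raises amino acid supply and tRNA charging when amino acids run short. The 35 members described here were chosen by gene symbol from 61280 rows of the deposited table: 19 cytosolic enzymes or enzyme subunits, and 16 mitochondrial enzymes. All 35 were found under their current symbol, once each, and all 35 passed the filter on low values. The cytosolic group includes GARS1 and KARS1, whose genes also make the mitochondrial glycyl and lysyl enzymes. The aspartate enzymes were not among the members.

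The RNA came from MDA-MB-231, an established line of human breast cancer of the triple-negative kind, in 2 groups of 3 libraries. The irradiated cells had received 20 Gy of X-rays and were cultured for 24 h, and the control cells were not treated; for the controls no time in culture is stated, and no genetic change is named in either group. Values are TPM, which state the length-adjusted share that a transcript takes of a library, so the read depth behind them is unknown and fewer copies per cell cannot be told apart from a smaller share. Whether replicates are independent cultures is not stated, so the p-values reflect variation among these 6 libraries, some or all of which may be technical.

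At 1 TPM or more, 14592 to 14889 genes were found in the irradiated libraries, against 14248 to 14417 in the control libraries. Pearson correlations of log2(TPM + 1) over the tested genes were 0.976 to 0.982 between groups and 0.98 to 0.988 within groups. Of the markers of the line, the mesenchymal gene VIM lay between 1583 and 2011 TPM in the 6 libraries, the oestrogen receptor gene ESR1 between 0.02 and 0.39 TPM, and the progesterone receptor gene PGR was listed at 0 in all of them. ERBB2 was not absent, at 20.9 to 27.9 TPM, and neither was EPCAM, at 8.32 to 11.3 TPM. PTPRC, a leucocyte gene, stood at 40.4 TPM in irradiated replicate 1 and at 0.11 to 0.45 TPM in the other 5 libraries, while the fibroblast gene DCN was at most 0.1 TPM throughout. Counts without that library are given below.

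After irradiation, 7 of the 19 cytosolic synthetase transcripts fell and none rose. None of the 16 mitochondrial ones passed the test, against 10.6% called over all tested genes. With only 16 genes, this count was not read as a difference from that share. The mitochondrial members were also less abundant, with a median control mean of 17.45 TPM against 102.9 TPM for the cytosolic ones. The 7 were MARS1, GARS1, CARS1, YARS1, SARS1, EPRS1 and IARS1, with falls in mean TPM between 14.8% and 30.6%. All 7 belong to the 12 cytosolic enzymes commonly listed as ATF4 targets, and none to the other 7 cytosolic enzymes. That list was chosen with earlier results of these data known, so the split describes the members and does not test a link to ATF4. A gene was called where limma, run on log2(TPM + 1), gave a Benjamini-Hochberg adjusted p below 0.05 over 14621 genes. Over all tested genes, 10.6% were called, 4.07% as lower and 6.53% as higher. Among the 4457 genes with a mean of at least 28.8 TPM, the level of the least abundant cytosolic member, 9.69% were called lower and 8.39% higher. The cytosolic count was 11 once trends on GC content and on transcript length had been removed (the GC and length correction), and without a filter it was 4. Over all genes, the number called lower moved too, from 595 to 1477 after that correction and to 205 without a filter. With 1 library left out it was 133 to 516. Leaving out 1 library gave 5 without irradiated replicate 1, 6 without irradiated replicate 2, 5 without irradiated replicate 3, 4 without control replicate 1, 4 without control replicate 2 and 5 without control replicate 3.

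A regulatory element known from ATF4 targets, at which ATF4 binds with a C/EBP partner, has the letters TGATGNAA and was searched on both strands of RefSeq promoter windows (GRCh38.p14, 250 bases before to 50 after the annotated start). Windows were matched for 30 of the 35 members, with none for LARS1, YARS1, VARS1, AARS2 and VARS2, and 9 members had more than 1 window. Of the 16 cytosolic genes with a window, 7 held the element (AARS1, CARS1, GARS1, IARS1, MARS1, NARS1 and TARS1), and of the 14 mitochondrial genes 1 did (YARS2, at positions -197 to -190). Counted by window, 7 of 21 cytosolic windows (33.3%) and 1 of 18 mitochondrial windows (5.56%) held it, against 3.62% of all 35116 windows. In 6 cytosolic windows the element began within 50 bases of the start, as it did in 1.07% of all windows. The stretches below show where it lies in the 7 cytosolic genes, on the strand of each gene from 5′ to 3′ with the element in capitals; in all but NARS1 the match is on the opposite strand and reads as its reverse complement.
CARS1: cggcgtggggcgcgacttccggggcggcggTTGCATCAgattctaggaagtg
MARS1: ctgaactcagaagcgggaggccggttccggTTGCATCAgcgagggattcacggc
IARS1: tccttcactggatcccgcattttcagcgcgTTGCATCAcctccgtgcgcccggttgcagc
GARS1: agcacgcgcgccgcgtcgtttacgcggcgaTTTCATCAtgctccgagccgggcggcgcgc
TARS1: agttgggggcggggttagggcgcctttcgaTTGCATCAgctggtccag
NARS1: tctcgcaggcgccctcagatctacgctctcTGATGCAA
AARS1: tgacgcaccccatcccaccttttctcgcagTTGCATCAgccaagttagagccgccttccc

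Counting the first transcribed base as position 1, the element ran from -2 to 6 in CARS1 (chr11:3057404-3057455, minus strand), from -4 to 4 in MARS1 (chr12:57488034-57488087, plus strand) and from -13 to -6 in IARS1 (chr9:92293681-92293740, minus strand). It ran from -33 to -26 in GARS1 (chr7:30594815-30594874, plus strand), from 3 to 10 in TARS1 (chr5:33440937-33440984, plus strand) and from 15 to 22 in NARS1 (chr18:57621815-57621852, minus strand). In AARS1 it lay farther upstream, from -187 to -180 (chr16:70289664-70289723, minus strand). All but GARS1 carried the stricter form TGATGCAA, which 0.866% of all windows hold. The element was present in 4 of the 6 genes called lower that had a window, with EPRS1 and SARS1 lacking these letters. It was also present in 3 of the 10 uncalled cytosolic genes with a window, AARS1, NARS1 and TARS1, all on the ATF4 list. By list, 7 of the 10 ATF4-listed genes with a window held it, and 0 of the 6 other cytosolic genes. Whether the element goes with the fall was not tested. A match describes the letters and is not evidence of binding.

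**Figure D1:**
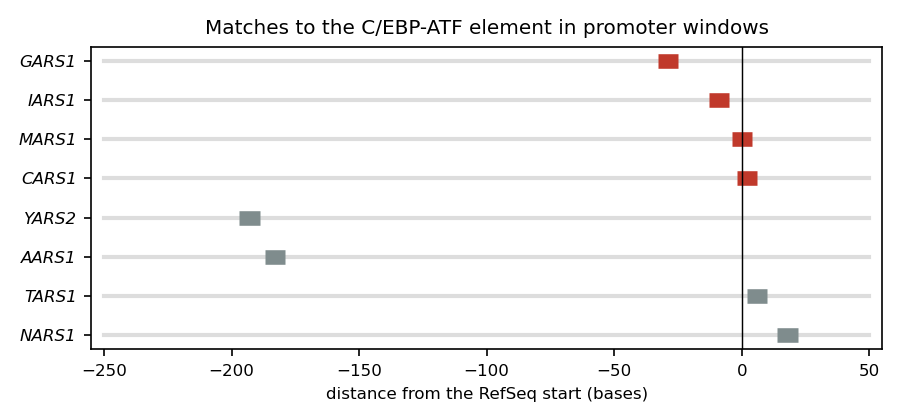
Positions of the C/EBP-ATF element in promoter windows of 8 synthetase genes, on a horizontal axis of bases from the RefSeq start; red blocks are genes called lower after irradiation and grey blocks uncalled genes. In 6 of the 8 genes the element lies within 50 bases of the start, and in AARS1 and YARS2 it lies at -187 and -197.

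GARS1, the glycyl enzyme of both compartments (ENSG00000106105; chromosome 7, 30594681 to 30634033, plus strand, hg38), had 157, 148 and 157 TPM in the irradiated libraries, against 222, 218 and 207 TPM in the control libraries. It fell to a mean of 153.9 ± 5.42 TPM, against 215.9 ± 7.84 TPM in controls, here and below mean ± SD with n = 3 per group (log2 change of TPM + 1, -0.49 ± 0.05 SE, adjusted p = 0.00358). Every irradiated library lay below every control library. SARS1, the seryl enzyme (ENSG00000031698; chromosome 1, 109213918 to 109238169, plus strand), was the most abundant member in control cells, with 285, 281 and 281 TPM in irradiated and 359, 364 and 365 TPM in control libraries. Relative to the mean, its replicates were the tightest of the called members, at 282 ± 2.1 TPM in irradiated and 363 ± 3.01 TPM in control cells (log2 change -0.36 ± 0.03 SE, adjusted p = 0.00328). CARS1, the cysteinyl enzyme (ENSG00000110619; chromosome 11, 3000922 to 3057613, minus strand), had 41.8, 42.3 and 45.1 TPM in irradiated and 58.3, 57.7 and 60.1 TPM in control libraries (log2 change -0.44 ± 0.05 SE, adjusted p = 0.0064). YARS1, the tyrosyl enzyme, whose mutations cause an inherited neuropathy (ENSG00000134684; chromosome 1, 32775237 to 32818153, minus strand), had 62.7, 63.1 and 66.2 TPM in irradiated and 84.4, 82.8 and 86.6 TPM in control libraries (log2 change -0.40 ± 0.05 SE, adjusted p = 0.00614). The groups were fully separated for both genes, and these 4 genes, GARS1, SARS1, CARS1 and YARS1, were called in each of the 16 alternatives, with adjusted p between 0.00109 and 0.0417.

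The other 3 called genes encode enzymes of the multi-synthetase complex, an assembly that holds several cytosolic synthetases on 3 scaffold proteins. MARS1, the methionyl enzyme, which also charges the initiator tRNA (ENSG00000166986; chromosome 12, 57475445 to 57517569, plus strand), had 159, 129 and 129 TPM in irradiated and 196, 222 and 182 TPM in control libraries. Its change was the largest of all members and its spread wide (log2 change -0.53 ± 0.10 SE, adjusted p = 0.0235). EPRS1, a fused enzyme for glutamate and proline (ENSG00000136628; chromosome 1, 219968601 to 220046658, minus strand), had 49.6, 47.4 and 52.9 TPM in irradiated and 63.4, 60.3 and 65.7 TPM in control libraries (log2 change -0.33 ± 0.06 SE, adjusted p = 0.0195). IARS1, the isoleucyl enzyme (ENSG00000196305; chromosome 9, 92210207 to 92293756, minus strand), had 74.5, 69.9 and 74.8 TPM in irradiated and 85.3, 84.2 and 87.8 TPM in control libraries (log2 change -0.23 ± 0.05 SE, adjusted p = 0.0277). The groups did not overlap for any of the 3, but the calls were less stable. EPRS1 lost its call with no filter and without irradiated replicate 1 or control replicate 1, 2 or 3 (adjusted p over all alternatives 0.0123 to 0.0719). IARS1 lost it with no filter, eBayes without trend, the replicate block, and without irradiated replicate 1 or 3 or control replicate 1, 2 or 3 (0.0162 to 0.0864). MARS1 lost it with no filter, eBayes without trend, the replicate block, and without irradiated replicate 2 or 3 or control replicate 1 or 2 (0.0115 to 0.0847). None of the 7 changed direction in any alternative.

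**Figure D2:**
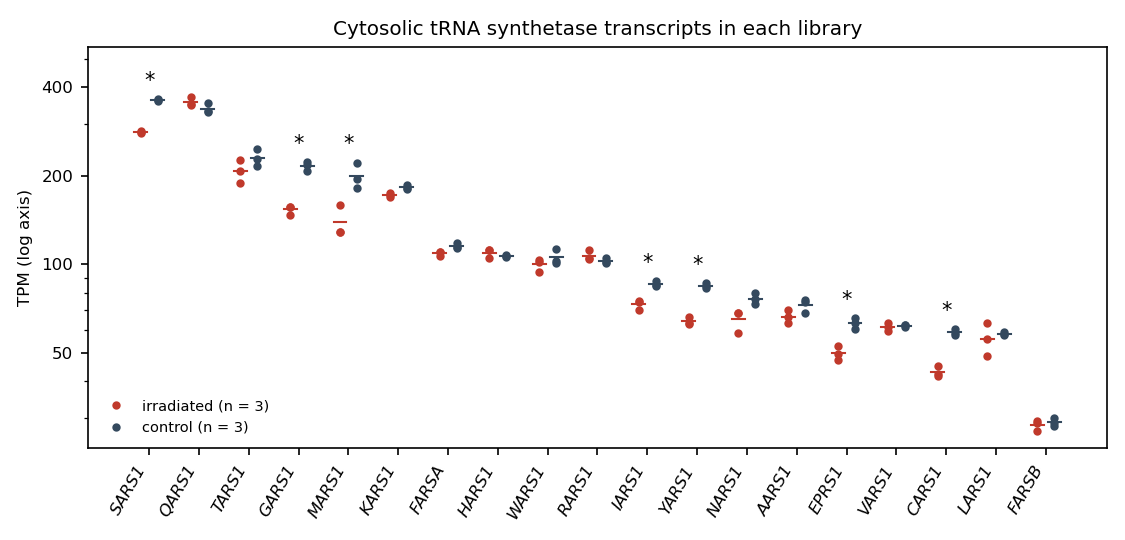
TPM (log axis) of the 19 cytosolic synthetase transcripts, ordered by their level in control cells; points are libraries (irradiated red, left; control dark, right), bars are means of 3 libraries, and asterisks mark adjusted p under 0.05. The 7 marked genes show no overlap between groups, while QARS1, RARS1 and HARS1 overlap.

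Within the complex the enzymes did not move as one. Of its 7 member enzymes, 3 fell and 4 did not pass the test. QARS1, the glutaminyl enzyme and the most abundant uncalled member, had 351, 348 and 370 TPM in irradiated and 333, 353 and 329 TPM in control libraries (log2 change 0.07 ± 0.04 SE, adjusted p = 0.32). Its groups overlapped, and after the GC and length correction its log2 change was -0.02. RARS1, the arginyl enzyme, averaged 106.9 ± 4.06 TPM in irradiated and 102.9 ± 2.07 TPM in control cells, and LARS1, the leucyl enzyme that also acts as a leucine sensor, averaged 55.9 ± 7.26 and 58.2 ± 0.772 TPM in irradiated and control cells. KARS1, the lysyl enzyme, had no overlap between groups, at 172 ± 3.03 TPM in irradiated and 183 ± 3.27 TPM in control cells, but was called only after the GC and length correction (adjusted p = 0.176 without it, 0.0453 to 0.392 over the alternatives). None of the 3 scaffold genes passed the test. EEF1E1 averaged 67.0 ± 6.36 TPM in irradiated and 78.5 ± 1.02 TPM in control cells (adjusted p = 0.0815), and AIMP2 64.9 ± 2.79 and 70.7 ± 2.67 TPM in irradiated and control cells (adjusted p = 0.188). Both were lower without overlap. AIMP1 averaged 47.8 ± 3.2 and 48.4 ± 3.71 TPM in irradiated and control cells, with overlap (adjusted p = 0.911).

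Of the 12 enzymes on the ATF4 list, 5 did not pass the test, and the log2 changes of all 12 lay between -0.53 and -0.06 with a median of -0.28. The list rests on general knowledge of these genes and was chosen with earlier results of these data known. TARS1, the threonyl enzyme and the next most abundant uncalled cytosolic member, had 208, 189 and 227 TPM in irradiated and 228, 247 and 217 TPM in control libraries (log2 change -0.15 ± 0.08 SE, adjusted p = 0.252). Irradiated replicate 3 lay above control replicate 3, so the groups overlapped. NARS1, the asparaginyl enzyme, had 68.6, 58.6 and 68.4 TPM in irradiated and 80.1, 76.0 and 73.1 TPM in control libraries. Its groups did not overlap, but it missed the threshold (log2 change -0.23 ± 0.07 SE, adjusted p = 0.0917) except after median-ratio scaling or the GC and length correction (0.0233 to 0.242 over the alternatives). AARS1, the alanyl enzyme, averaged 66.4 ± 3.45 TPM in irradiated and 72.8 ± 3.97 TPM in control cells (adjusted p = 0.217, and 0.0332 after the GC and length correction). WARS1, the tryptophanyl enzyme, is also induced by interferon gamma. It had 102, 94.2 and 104 TPM in irradiated and 101, 113 and 103 TPM in control libraries, with overlap (log2 change -0.08 ± 0.06 SE, adjusted p = 0.444).

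The 7 cytosolic members outside that list had log2 changes between -0.09 and 0.07, with a median of -0.02. FARSA and FARSB encode the 2 subunits of the phenylalanyl enzyme, and their level ratio was 3.71, 4.07 and 3.75 in irradiated libraries and 3.78, 4.04 and 4.07 in control libraries. FARSA averaged 109 ± 1.76 TPM in irradiated and 115 ± 2.42 TPM in control cells, without overlap, and was called only after the GC and length correction (adjusted p = 0.26 without it, 0.00793 to 0.471 over the alternatives). FARSB (28.5 ± 1.24 TPM in irradiated and 29.1 ± 0.865 TPM in control cells), VARS1, the valyl enzyme (61.2 ± 1.77 and 61.9 ± 0.37 TPM in irradiated and control cells), and HARS1, the histidyl enzyme (109.5 ± 3.6 and 106.7 ± 1.03 TPM), overlapped between groups. Summed over the 7, the level was 937, 930 and 965 TPM in irradiated libraries and 936, 948 and 928 TPM in control libraries. Summed over the 12 on the ATF4 list, it was 1329, 1233 and 1339 TPM in irradiated libraries and 1604, 1658 and 1581 TPM in control libraries. Every irradiated library was therefore below every control library in the ATF4 list sum, and the groups overlapped in the other. The ATF4 list sum holds the 7 called genes, so its separation in part repeats their calls. Those 7 alone summed to 829, 780 and 806 TPM in irradiated and 1069, 1089 and 1055 TPM in control libraries. The 12 uncalled cytosolic genes summed to 1437, 1383 and 1498 TPM in irradiated and 1471, 1517 and 1454 TPM in control libraries, with overlap.

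Over all 19 cytosolic members the median log2 change was -0.13, against 0.03 for all tested genes and -0.01 for those of at least 28.8 TPM. It was -0.08 without irradiated replicate 2 and -0.20 after the GC and length correction. Without overlap between groups, 10 of the 19 were lower and none higher; over all tested genes, 14.5% were lower and 20.4% higher in this sense. The structural class of the enzyme did not separate the called members. Class I and class II synthetases have unrelated catalytic domains, and 4 of 9 cytosolic class I members and 2 of 9 class II members were called lower, besides EPRS1, which holds one domain of each. By complex, 3 of 7 enzymes inside and 4 of 12 outside it were called lower; no test of these shares was made. The called members had longest transcripts with a median of 3592 bases and 51.5% GC, against 3234 bases and 46.7% GC for the 12 uncalled cytosolic members, and the 4 additional calls after the GC and length correction were AARS1, NARS1, FARSA and KARS1.

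**Figure D3:**
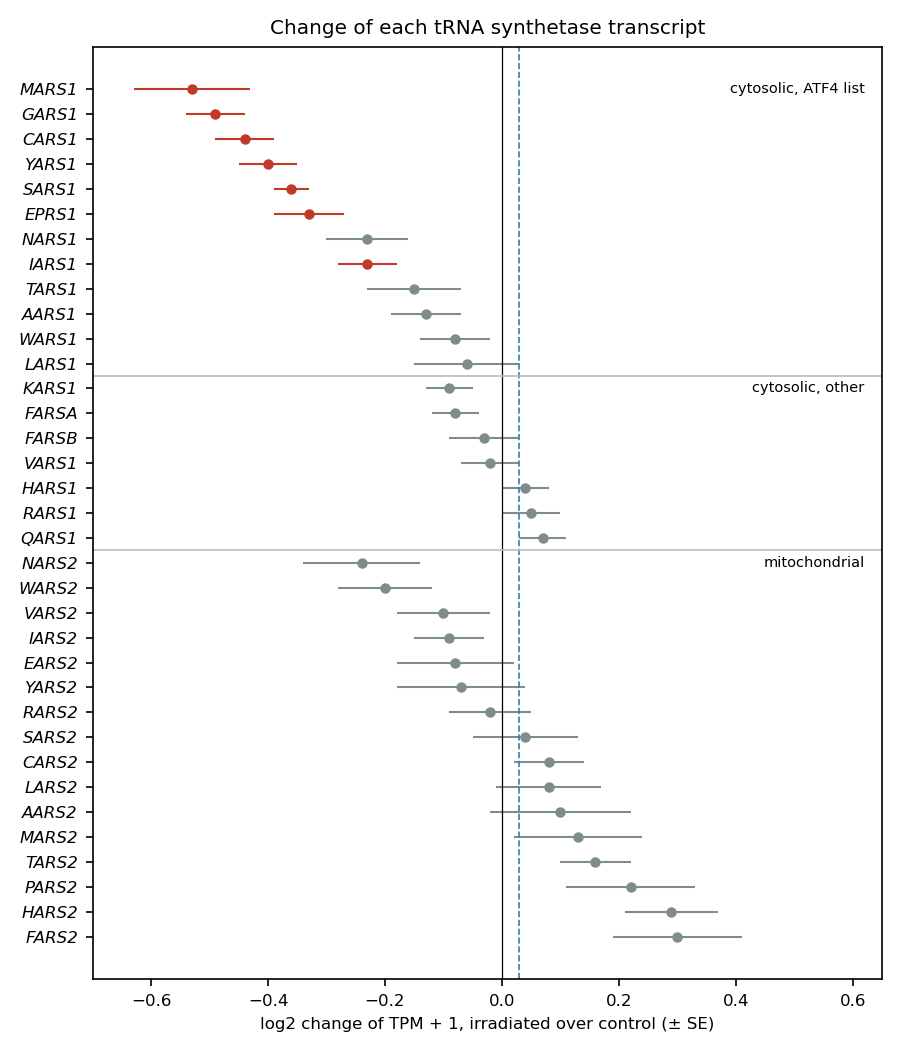
Log2 change of TPM + 1 (irradiated over control, horizontal axis) with its standard error for all 35 synthetase transcripts in 3 blocks; red marks adjusted p under 0.05, and the dashed line is the median of all tested genes, 0.03. Red points occur in the top block of 12 ATF4-listed enzymes, and the mitochondrial block spans -0.24 to 0.30.

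The mitochondrial enzymes were less abundant, with control means between 3.48 and 73 TPM, and their log2 changes lay between -0.24 and 0.30 with a median of 0.06. That median was -0.03 after the GC and length correction and 0.01 with a minimum of 5 TPM or after quantile normalization. Leaving out irradiated replicate 1 gave 0.02 and irradiated replicate 2 gave 0.04, while leaving out control replicate 1, 2 or 3 gave 0.03, 0.02 or 0.10 in that order. None passed the test in limma on log2(TPM + 1); at an unadjusted p under 0.05, 5 did: NARS2 and WARS2 with lower and FARS2, HARS2 and TARS2 with higher values in irradiated cells. Over all tested genes 28% passed at that level, so 5 of 16 is near the background. Without overlap between groups, 2 of the 16 were lower and 4 higher. Over all tested genes 14.5% were lower and 20.4% higher in this sense, so these counts are near the background. IARS2, the isoleucyl enzyme and the most abundant of them, had 70.4, 63.4 and 72.1 TPM in irradiated and 72.3, 72.1 and 74.6 TPM in control libraries (log2 change -0.09 ± 0.06 SE, adjusted p = 0.367). CARS2, the cysteinyl enzyme, had 35.7, 35.8 and 37.0 TPM in irradiated and 34.6, 32.3 and 36.0 TPM in control libraries (log2 change 0.08 ± 0.06 SE, adjusted p = 0.446). Both overlapped between groups.

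HARS2, the histidyl enzyme (ENSG00000112855; chromosome 5, 140691426 to 140699318, plus strand), came nearest to the threshold, with 23.3, 21.4 and 24.1 TPM in irradiated and 17.5, 20.0 and 18.4 TPM in control libraries. All irradiated values were above all control values (log2 change 0.29 ± 0.08 SE, adjusted p = 0.0587), and it was called higher after quantile normalization, after median-ratio scaling, with a minimum of 5 TPM, and without irradiated replicate 2 (0.0384 to 0.177 over the alternatives). It stands head to head with HARS1 (chromosome 5, 140673904 to 140691862, minus strand), and 437 exon bases, 11.7% of those of HARS2, are shared by both strands; with no strand setting given in the sources used here, reads there cannot be assigned. HARS2 also shares 152 exon bases (4.07%) with ZMAT2 on its own strand, a gene at a mean of 96.4 TPM, so its level is uncertain. FARS2, the phenylalanyl enzyme, averaged 13.1 ± 0.866 TPM in irradiated and 10.5 ± 1.51 TPM in control cells (adjusted p = 0.13). TARS2, the threonyl enzyme, averaged 21.5 ± 0.685 and 19.04 ± 0.493 TPM in irradiated and control cells (adjusted p = 0.142), and PARS2, the prolyl enzyme, 5.35 ± 0.428 and 4.44 ± 0.189 TPM (adjusted p = 0.222). These 3 were higher without overlap. NARS2, the asparaginyl enzyme, averaged 14.5 ± 0.245 TPM in irradiated and 17.4 ± 2.27 TPM in control cells (adjusted p = 0.161), and WARS2, the tryptophanyl enzyme, 13.9 ± 0.121 and 16.0 ± 1.07 TPM in irradiated and control cells (adjusted p = 0.144); both were lower without overlap.

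The remaining 8 mitochondrial members overlapped between groups. They were AARS2 (3.79 ± 0.381 TPM in irradiated and 3.48 ± 0.331 TPM in control cells), MARS2 (9.17 ± 0.976 and 8.25 ± 0.74 TPM in irradiated and control cells), VARS2 (12.2 ± 0.845 and 13.1 ± 0.398 TPM), RARS2 (14.1 ± 0.69 and 14.3 ± 0.271 TPM), EARS2 (16.5 ± 1.78 and 17.5 ± 1.12 TPM), YARS2 (19.2 ± 1.31 and 20.3 ± 2.96 TPM), SARS2 (22.5 ± 1.74 and 21.8 ± 2.03 TPM) and LARS2 (27.3 ± 3.06 and 25.8 ± 1.71 TPM). Their adjusted p-values in limma were 0.473 to 0.877. SARS2 shares 10.8% of its exon bases with MRPS12, an opposite-strand gene at a mean of 122 TPM, and 46.2% with AC011455.2 on its own strand at 3.2 TPM, and VARS2 shares 22% with GTF2H4 on its own strand at 24.6 TPM, so both levels are uncertain. Summed over the 16 enzymes, the level was 328, 309 and 326 TPM in irradiated libraries and 314, 309.9 and 330 TPM in control libraries, and the groups overlapped.

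**Figure D4:**
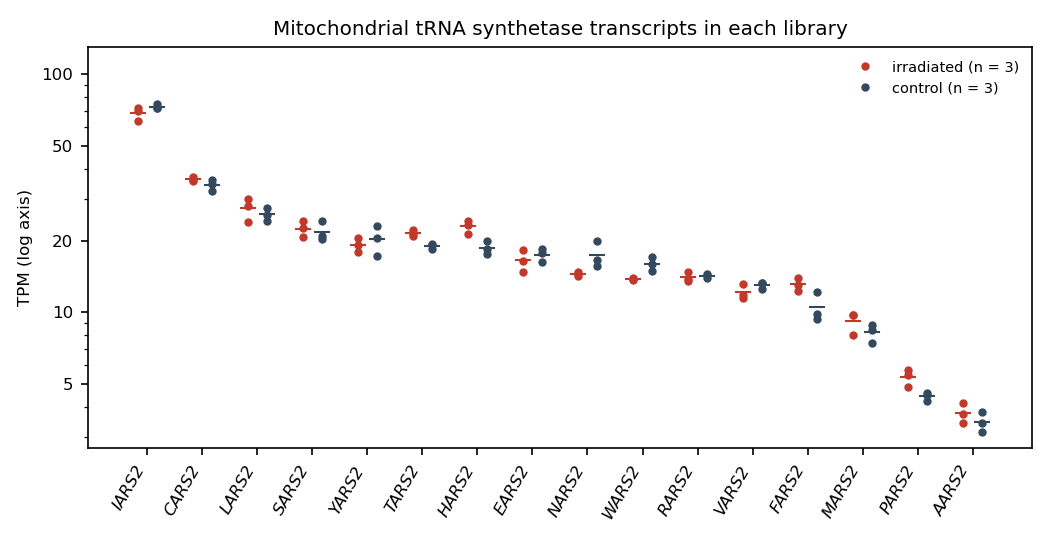
TPM (log axis) of the 16 mitochondrial synthetase transcripts, ordered by their level in control cells; points are libraries (irradiated red, left; control dark, right) and bars are means of 3 libraries. No gene passed the test, HARS2, FARS2, TARS2 and PARS2 are higher without overlap, and NARS2 and WARS2 are lower without overlap.

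Leaving aside the fused enzyme EPRS1, a cytosolic and a separate mitochondrial enzyme were both members for 14 amino acids. The change within these pairs could be compared directly as the difference of their log2(TPM + 1) values in each library. EPRS1 (log2 change -0.33) was not paired with EARS2 for glutamate (-0.08) or PARS2 for proline (0.22). This log2 ratio was lower in irradiated cells in 10 pairs, 9 of them without overlap between groups, and the median difference was -0.24. No such share was computed for pairs of other genes. Among single tested genes, a different measure from a ratio, 14.5% were lower and 20.4% higher without overlap. A pair whose cytosolic enzyme was called lower in part repeats that call. The lower pairs without overlap also include those of HARS2 and SARS2, whose levels are uncertain because of shared exons. For MARS1 over MARS2 it averaged 3.78 in irradiated and 4.44 in control libraries, a difference of -0.66 ± 0.18 (SE). For CARS1 over CARS2 it was 0.22, 0.23 and 0.28 in irradiated libraries and 0.74, 0.82 and 0.72 in control libraries, a difference of -0.52 ± 0.035. SARS1 over SARS2 differed by -0.41 ± 0.094 and YARS1 over YARS2 by -0.33 ± 0.13. IARS1 over IARS2, the last of the 14 pairs with a called cytosolic enzyme, differed by -0.14 ± 0.026 without overlap. In the other lower pairs without overlap the cytosolic enzyme was not called. HARS1 over HARS2 differed by -0.25 ± 0.076 with HARS1 itself at a log2 change of 0.04, and FARSA over FARS2 by -0.38 ± 0.12 with FARSA at -0.08. AARS1 over AARS2 differed by -0.23 ± 0.069 with AARS1 at -0.13, and TARS1 over TARS2 by -0.31 ± 0.11 with TARS1 at -0.15. NARS1 and NARS2 had log2 changes of -0.23 and -0.24, and their ratio differed by 0.01 ± 0.14. RARS1 over RARS2 was the only pair with a higher ratio without overlap (0.08 ± 0.017). An exact two-sided permutation test over the 20 assignments gave p = 0.1 for these 9 lower pairs and for RARS1, the smallest value that 3 against 3 allows, and 0.14 after adjustment over the 14 pairs, so no pair can pass in this test at this size.

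**Figure D5:**
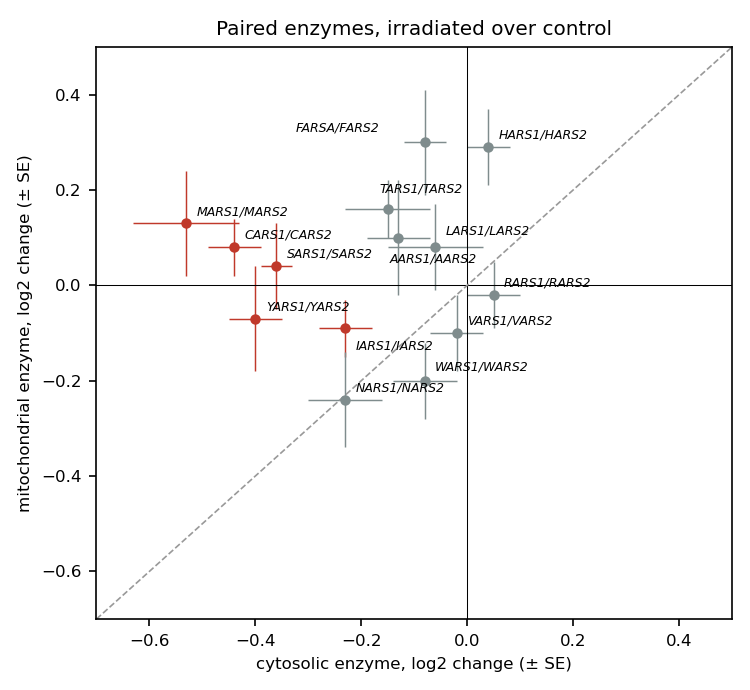
Log2 change (irradiated over control, with SE) of the cytosolic enzyme on the horizontal axis and of the mitochondrial enzyme for the same amino acid on the vertical axis, for 14 pairs; red marks a called cytosolic enzyme and the dashed line equal change. The red points lie left of the line, MARS1 over MARS2 farthest from it, and NARS1 over NARS2 lies on it.

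Exons shared with other genes were few for the called members. MARS1 shared the most, 7.38% of its exon bases with ARHGAP9 (mean 2.94 TPM) and 5.05% with the stress gene DDIT3 (11.8 TPM), both on the opposite strand; the rest shared at most 4.82%. ATF4 itself had 304, 308 and 305 TPM in irradiated and 400, 411 and 393 TPM in control libraries and fell (log2 change -0.39 ± 0.03 SE, adjusted p = 0.00309). EIF2AK4, which encodes the kinase GCN2 that senses uncharged tRNA, averaged 37.2 ± 4.57 TPM in irradiated and 33.3 ± 0.131 TPM in control cells without overlap (adjusted p = 0.306), and GCN1, its activator, 51.4 ± 8.13 and 49.4 ± 4.32 TPM in irradiated and control cells (adjusted p = 0.825). IMPACT, an inhibitor of that activation, was also uncalled (adjusted p = 0.745). Of 7 genes of the interferon gamma response, set beside WARS1, 4 rose, where 6.53% of all tested genes were called higher. These 7 were chosen with earlier results of these data known, and an interferon response was not tested. PSMB9, an immunoproteasome subunit, averaged 46.1 ± 3.36 TPM in irradiated and 27.0 ± 2.77 TPM in control cells (log2 change 0.75 ± 0.09 SE, adjusted p = 0.0064), and the guanylate-binding protein genes GBP1 (0.48 ± 0.06, adjusted p = 0.00814) and GBP2 (0.47 ± 0.09, adjusted p = 0.0224) and the transcription factor gene IRF9 (0.47 ± 0.06, adjusted p = 0.00921) also rose. IRF1 varied between replicates, with 50.1, 49.4 and 11.6 TPM in irradiated and 15.4, 10.6 and 29.6 TPM in control libraries.

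Among other genes of tRNA metabolism, XPOT fell and POP5, DUS1L and ADAT1 rose, where 10.6% of all tested genes were called. Of 24 genes of tRNA processing and export, 1 fell and 1 rose, with a median log2 change of -0.01. XPOT, the nuclear export receptor of tRNA, had 37.3, 30.3 and 37.1 TPM in irradiated and 46.0, 47.5 and 45.3 TPM in control libraries (log2 change -0.40 ± 0.09 SE, adjusted p = 0.0294), and POP5, a protein subunit of RNase P, averaged 61.3 ± 1.26 TPM in irradiated and 49.1 ± 2.8 TPM in control cells (0.32 ± 0.06, adjusted p = 0.0186). Of 45 tRNA modification genes, 2 rose and none fell, with a median of -0.04: DUS1L, a dihydrouridine synthase (0.37 ± 0.05, adjusted p = 0.00967), and ADAT1, a tRNA adenosine deaminase (0.27 ± 0.06, adjusted p = 0.0359). None of 21 genes of RNA polymerase III, which transcribes tRNA genes, its factors and its regulator was called (median -0.06, range -0.24 to 0.17). MAF1, the repressor of this polymerase, averaged 126.5 ± 8 TPM in irradiated and 135 ± 1.43 TPM in control cells, and GTF3C6, a subunit of the initiation factor TFIIIC, 126.5 ± 5.83 TPM in irradiated and 130.8 ± 3.78 TPM in control cells. None was called among 4 factors of mitochondrial tRNA charging, 3 proofreading factors or 4 factors of selenocysteine charging or insertion. Their median log2 changes were 0.11, -0.13 and 0.15 in that order. In irradiated and control cells, GATC averaged 33.4 ± 2.12 and 34.5 ± 2.22 TPM, and MTFMT 22.3 ± 1.25 and 20.5 ± 1.95 TPM. In the same order, AARSD1 averaged 37.1 ± 1.09 and 40.8 ± 4.71 TPM, and DTD1 32.5 ± 2.24 and 37.9 ± 0.57 TPM. SECISBP2 averaged 13.3 ± 1.37 TPM in irradiated and 14.7 ± 0.695 TPM in control cells. EEFSEC averaged 13.5 ± 1.25 TPM in irradiated and 13.1 ± 0.703 TPM in control cells.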

How the data were processed

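MDA-MB-231 RNA-seq libraries (3 irradiated, 3 control, grouped by sample title) were made with a TruSeq kit, per the labels' protocols. The submitters' processing notes name HISAT2, StringTie, RSEM and build hg38, without roles or versions. The authors deposited 1 table of TPM values per gene, which sum to the same total in each library; the sources used here give neither the strand setting nor any scaling between libraries. At most 0.479% of tested genes had identical values in 2 libraries of a group. A gene was tested if 3 or more of the 6 libraries reached 1 TPM, with limma 3.58.1 in R 4.3.3 on log2(TPM + 1) (lmFit, eBayes with trend, no covariate; degrees of freedom 4 residual, 3.39 prior; two-sided p); this scale understates changes of low genes. The fit was tested on simulated data, where it recovered 6% of absolute log2 changes of 0.3, 34% of 0.5 and 76% of 1.0. Each size of change was given to 50 genes drawn at any level, with 14146 genes tested. Of the 111 calls there, 6 were false. The real data gave 1550 calls, so these shares do not state the recovery for the members. Members and lists were chosen with earlier results of these data known. Named with full values were called members and the 2 most abundant uncalled members of each compartment; others, and up to 4 called genes of each other list or its 2 most abundant, are named with shorter statistics; further genes (scaffolds, sensors, IRF1, and the sample values of NARS1, HARS2 and WARS1) were chosen after their values were seen. Coordinates, exons, GC content and length of the longest transcript came from GENCODE 29, on the assembly of hg38, by gene identifier (97.4% of tested genes). Promoter sequences are RefSeq's (GRCh38.p14). Same-numbered replicates are not stated to be paired, so a block entered only 1 of the alternatives. These were, changing 1 choice at a time: quantile normalization; median-ratio scaling; cubic trends on GC content and length removed; rescaling without the genes of mitochondrial DNA; a minimum of 5 TPM, or none; 0.1 as pseudocount; robust eBayes, or eBayes without trend; a block for replicate number; and leaving out each library.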

Additional observations from a re-analysis of the deposited data

How the results depend on the processing

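Over 16 alternatives, none of the 7 called members changed direction, and 4 kept their call in all. The cytosolic count of 7 was 11 after the GC and length correction, 4 with no filter, and 4 to 6 with 1 library left out. The mitochondrial count of 0 was 1 (HARS2) with a filter of 5 TPM, median-ratio scaling or quantile normalization, and 0 to 1 with 1 library left out. The median log2 change of the mitochondrial enzymes was -0.03 after the GC and length correction. The count over all genes, 1550 (595 lower, 955 higher), was 993 with eBayes without trend, 497 with no filter, and 346 to 1414 with 1 library left out; after median-ratio scaling it was 785 lower and 810 higher, and after the GC and length correction 1477 lower and 844 higher. Fits on fewer libraries have fewer residual degrees of freedom, and no filter tests more genes; other causes were not tested. With the replicate block, 362 genes and 5 cytosolic members were called, MARS1 and IARS1 losing their calls; deviations of same-numbered libraries correlated at 0.03, -0.06 and -0.03, and no pairing was assumed. Uncalled members changed sign in 12 fits: after the GC and length correction AARS2 (-0.01), CARS2 (-0.00), QARS1 (-0.02) and SARS2 (-0.09); after quantile normalization AARS2 (-0.02); without irradiated replicate 2 FARSB (0.00), LARS1 (0.03), RARS2 (0.00), SARS2 (-0.00) and VARS1 (0.00); without control replicate 2 SARS2 (-0.00); and without control replicate 3 YARS2 (0.03). With 1 library left out, the log2 change ranged over -0.06 to 0.00 for FARSB, -0.16 to 0.03 for LARS1, -0.06 to 0.00 for RARS2, -0.00 to 0.12 for SARS2, -0.04 to 0.00 for VARS1 and -0.18 to 0.03 for YARS2. AARS2 and PARS2 were not tested under the 5 TPM filter.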
